A study of Mus musculus with 2 samples.

Results

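The 6 microRNA genes Mir431, Mir433, Mir127, Mir434, Mir432 and Mir136 lie on chromosome 12 on the strand opposite the protein-coding gene Rtl1. They were taken by name from the 2202 microRNA genes of the deposited tables. The rule uses their position and no measured value, although earlier results of these data were known when it was written. Small RNA had been sequenced (microRNA-seq) from 2 tissues labelled as layer of hippocampus. They carry the strain label 5xFAD/CAST, male sex, adult stage and an age of 8 to 10 months. 5xFAD mice carry transgenes that model Alzheimer disease, while CAST names a strain derived from wild mice. The labels give 1 group with biological replicates 1 and 2, a tissue record for each and a single donor record for both, and no genotype of an individual animal. Both libraries may therefore come from 1 animal, and the SD over n = 2 below is the spread between libraries. No control tissue, other strain or other age was analysed here, so every value below is a level in this tissue or a difference between its 2 libraries, whose spread may be technical.

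Rtl1, also known as Peg11, is a retrotransposon-derived gene that is expressed from the paternal chromosome. The microRNAs on its other strand belong to the large imprinted Dlk1-Dio3 region and are processed from noncoding transcripts of the maternal chromosome. Because they are exact complements of the Rtl1 mRNA, they are known to guide its cleavage as well as to act on other mRNAs through their seed, the short stretch near the 5′ end that pairs with targets. The region's microRNAs are abundant in brain and placenta. The counts carry no allele information, so the parental origin of these reads was not measured, and neither was Rtl1 mRNA.

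The mature sequences show what the 6 hairpins have in common and where they differ. RefSeq (build GRCm38.p6) lists 11 mature microRNAs for them, all 6 genes being matched, and the hairpin positions and sequences are identical to those of GENCODE M21 on mm10. Each is written 5′ to 3′ with the seed, bases 2 to 8, in capitals.
miR-431-5p: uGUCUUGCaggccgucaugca
miR-431-3p: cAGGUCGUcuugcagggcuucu
miR-433-5p: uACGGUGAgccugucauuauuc
miR-433-3p: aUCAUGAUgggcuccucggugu
miR-127-5p: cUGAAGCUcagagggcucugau
miR-127-3p: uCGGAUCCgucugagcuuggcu
miR-434-5p: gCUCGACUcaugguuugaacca
miR-434-3p: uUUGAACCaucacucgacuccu
miR-432: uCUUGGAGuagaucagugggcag
miR-136-5p: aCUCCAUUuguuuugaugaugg
miR-136-3p: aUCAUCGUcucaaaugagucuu
The 11 seeds are all different. None of them occurs at bases 2 to 8 of a mature microRNA of another gene, among 1738 mature sequences in the table, so the 6 genes form a group by position and not a seed family. Counts are per hairpin gene, so reads of the 5p and 3p arms cannot be told apart.

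All 6 hairpins lie opposite the coding sequence of Rtl1 and none opposite its untranslated regions. Rtl1 occupies mm10 chromosome 12, 109589193 to 109600330, on the minus strand. Its coding sequence, 109590172 to 109595403, lies within a single exon and has 1744 codons. Read along the Rtl1 mRNA, Mir136 (109595327 to 109595388) is opposite codons 6 to 26, Mir432 (109594956 to 109595030) opposite codons 125 to 150 and Mir434 (109594506 to 109594599) opposite codons 269 to 300. Mir127 (109592846 to 109592915) follows opposite codons 830 to 853, Mir433 (109591715 to 109591838) opposite codons 1189 to 1230 and Mir431 (109590447 to 109590537) opposite codons 1623 to 1653. The stretch thus runs over 4942 bases, most of the 5232 coding bases, and the hairpins are 296 to 1590 bases apart. Each of the 11 mature sequences has exactly 1 perfectly complementary site in the Rtl1 coding sequence. For miR-127-3p that site on the mRNA, at codons 832 to 839, reads as follows, with T for U.
miR-127-3p site in Rtl1: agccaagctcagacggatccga
Counting that site, the seed alone has 4 matches in the coding sequence for miR-434-3p, 3 each for miR-434-5p and miR-431-5p, and 2 each for miR-431-3p, miR-432 and miR-136-5p. For the other 5, miR-127-3p and miR-433-3p among them, the only seed match is the perfect site. These matches are a description of the letters and not measured target sites.

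**Figure D1:**
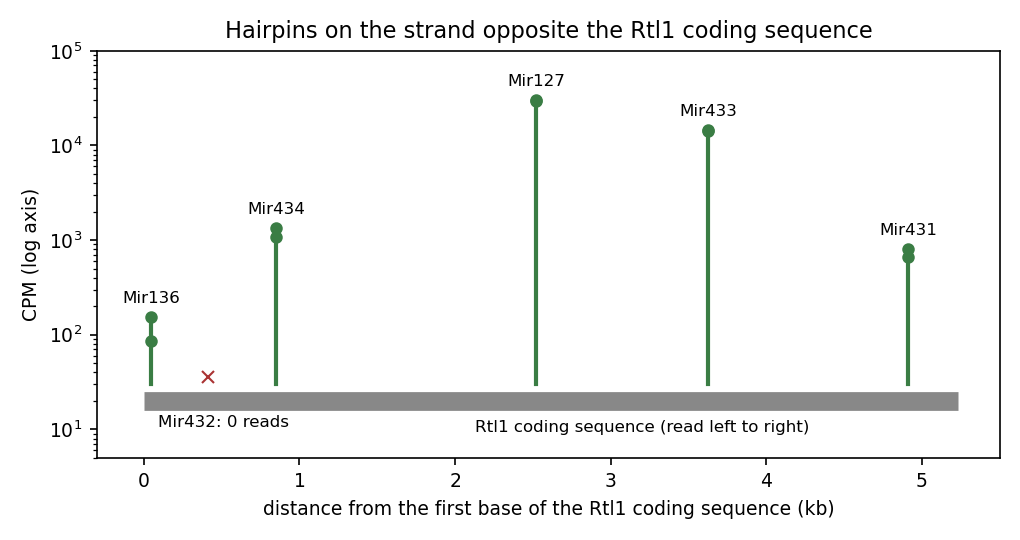
Position of the 6 hairpins along the Rtl1 coding sequence (grey bar, x axis in kb from its first base) and their abundance (y axis, CPM, log axis), with 1 point for each library. Mir127 and Mir433, opposite the middle of the coding sequence, stand between 14339 and 30465 CPM, the outer hairpins Mir431, Mir434 and Mir136 are lower, and Mir432 has 0 reads in both libraries.

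Together the 6 genes held 4.64% ± 0.046 (SD, n = 2) of the reads assigned to microRNA genes. They took 160067 of 3421977 assigned reads in replicate 1, which is 4.68% (exact Clopper-Pearson 95% interval 4.66 to 4.70). In replicate 2 they took 130089 of 2820468, which is 4.61% (4.59 to 4.64). The share therefore moved little between the libraries, although the intervals, which cover counting error only, do not overlap. Of the 6 genes, 5 were detected, meaning at least 10 reads in both libraries, as were 389 of all 2202 genes. No read at any of the 6 lay on the Rtl1 strand: the opposite-strand column held 0 reads for all of them in both libraries.

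Mir127 and Mir433 made up nearly the whole of this share. They held 95.8% of the members' reads in replicate 1 and 95.3% in replicate 2. Mir127 (ENSMUSG00000070076.2), whose product miR-127-3p is known to repress Bcl6, had 104252 reads in replicate 1 and 82574 in replicate 2. That is 30465 and 29277 CPM (counts per 1000000 assigned reads), a mean of 29871 ± 841 (SD, n = 2). By assigned reads it ranked 7 among the genes in both libraries. Reads that fit several places, 41.6% and 38.2% of all reads, carry no gene name. Ranks and shares leave them out, so they order genes by assigned reads and not the microRNAs of the tissue. Mir433 (ENSMUSG00000070072.1), whose product is known to act on HDAC6 mRNA, had 49069 and 41446 reads, or 14339 and 14695 CPM, a mean of 14517 ± 251. It ranked 13 in replicate 1 and 14 in replicate 2. Mir127 exceeded Mir433 by 2.12-fold in replicate 1 and 1.99-fold in replicate 2, a ratio within each library that no scaling between libraries touches.

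The outer hairpins were lower by an order of magnitude or more. Mir434 (ENSMUSG00000070133.1) had 3675 and 3764 reads, or 1074 and 1335 CPM, a mean of 1204 ± 184. Mir431 (ENSMUSG00000070080.1), known for a role in axon regeneration of sensory neurons, had 2778 and 1873 reads, or 812 and 664 CPM, a mean of 738 ± 104. Mir136 (ENSMUSG00000104858.1) had 293 and 432 reads, or 85.6 and 153 CPM, a mean of 119 ± 47.8. The 3 genes together held 0.197% of assigned reads in replicate 1 and 0.215% in replicate 2. Mir434 was higher in replicate 2, as was Mir136, while Mir431 was higher in replicate 1.

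The order of the levels was the same in both libraries, and neighbours in it did not overlap between them. Mir433 exceeded Mir434 by 13.4-fold and 11.0-fold. Mir434 exceeded Mir431 by 1.32-fold in replicate 1 and 2.01-fold in replicate 2, the closest pair. Mir431 exceeded Mir136 by 9.48-fold and 4.34-fold. With 2 libraries no permutation test can reach 0.05, so the order is given as a description. Between Mir127 and Mir136 the ratio was 356 in replicate 1 and 191 in replicate 2. The hairpins are 62 to 124 bases long. Per 100 bases of hairpin the means were 42673 CPM for Mir127, 11707 for Mir433, 1281 for Mir434, 811 for Mir431 and 193 for Mir136. The order was the same, but mature sequences of 21 to 23 bases need not give more reads from a longer hairpin. These values are therefore no check of the order.

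**Figure D2:**
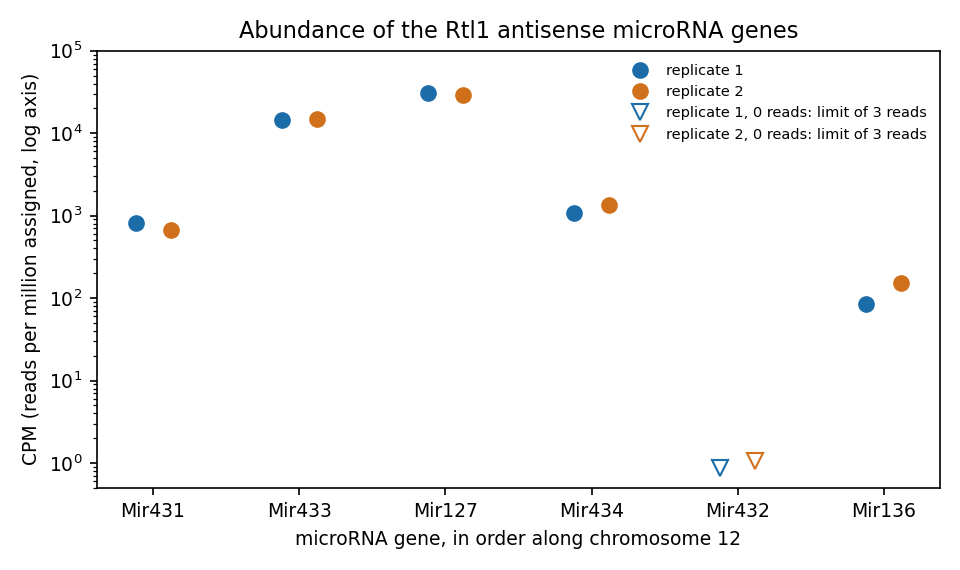
CPM of each gene (y axis, log axis) in replicate 1 and replicate 2, in order along the chromosome; bars are exact 95% intervals from counting and are mostly smaller than the points. The libraries nearly coincide for Mir127 and Mir433 and are furthest apart for Mir136, at 85.6 and 153 CPM, while the open triangles of Mir432 mark the limit that 0 reads allow.

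Mir432 was not detected. It had 0 reads on either strand in both libraries, which allows up to 0.877 CPM in replicate 1 and 1.06 CPM in replicate 2 (3 reads). Mir127 stood 34751-fold above this floor of 3 reads in replicate 1 and 27525-fold above it in replicate 2. Mir136, the lowest detected member, stood 97.7-fold and 144-fold above it. The letters of the Mir432 hairpin set it apart from the other 5. Of its 56 windows of 20 bases, 44 occur more than once on the same strand within the Rtl1 transcript span, in up to 7 places, and 1 such window recurs at a spacing of 66 bases. A read that fits several places carries no gene name in these tables. The recurring windows start at bases 1 to 44 of the hairpin, whereas the mature sequence starts at base 51, and its 4 windows occur once. By exact matches in annotated transcripts, a read of 20 or more bases from the annotated mature sequence fits 1 place on its strand. A read of 20 bases from the other arm would fit several. Inexact matches were not searched, and the part of reads that fit several places in the 0 was not tested. None of the 20-base windows of the other 5 hairpins occurs more than once within the Rtl1 transcript span. Apart from Rtl1 and, for Mir136, Mir3071, both on the other strand, no annotated transcript shares 20 bases with any of the 6. Copies outside annotated transcripts were not searched.

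Mir434 and Mir431 hold a repeat within the hairpin. The 13 bases ugguuugaaccau occur 2 times in Mir434, and a repeat at least as long is found in 8 of 1005 mouse hairpins of the RefSeq table (0.796%). In Mir431 the 10 bases gucuugcagg occur 2 times, and a repeat of at least that length is found in 28 hairpins (2.79%). The letters of the repeat include the whole seed of miR-434-3p in Mir434 and the whole seed of miR-431-5p in Mir431. The longest repeats in Mir127, Mir433, Mir432 and Mir136 are 5 or 6 bases long.

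Mir136 overlaps another annotated microRNA gene, and its level depends on the use of strand. Mir3071 (109595318 to 109595397, minus strand) covers the whole of Mir136 on the strand of Rtl1. It had 0 reads on its own strand in both libraries, so all 293 and 432 reads at this place lay on the Mir136 strand. In the column that disregards strand, Mir136 had 0 reads in both libraries. It is 1 of 7 detected genes between Mir770 and Mir410 for which that column holds 0, and of 24 in the whole tables. The same column holds 234489 reads in replicate 1 and 176310 in replicate 2 labelled ambiguous, against 0% in the column for the gene's strand. Whether the reads of Mir136 are among them was not tested.

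The libraries differed at every detected member by more than counting error, and by less than 2-fold. For this, an exact binomial test (two-sided) was applied to both counts of every detected gene, given library sizes scaled by TMM (edgeR), with Benjamini-Hochberg adjustment over all 389 detected genes. This test compares 2 libraries and not conditions. All 5 detected members were called at an adjusted p under 0.05, against 67.6% of all detected genes, so a call is not particular to them. Of the 5, 2 were higher in replicate 2 (33.9% of all detected genes were called in that direction) and 3 lower (33.7%), Mir433 turning to higher with library totals in place of TMM. None was called with a difference of at least 2-fold, against 22.4% of all detected genes. In bulk tissue, fewer cells of a type and less RNA per cell cannot be told apart.

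On TMM sizes, Mir433 and Mir127 lay closest to equality. The log2 ratio of replicate 2 over replicate 1 was -0.064 for Mir433 (exact 95% interval -0.083 to -0.045; exact binomial test, adjusted p = 9.25e-11) and -0.16 for Mir127 (-0.17 to -0.14; adjusted p = 2.45e-119). Only 22 of the 389 detected genes had a smaller absolute log2 ratio than Mir433, and 56 a smaller one than Mir127. These differences are small and the p-values rest on at least 41446 reads per gene and library. The sign for Mir433 depends on the scaling: with library totals in place of TMM its log2 ratio was 0.035, and it was then called higher in replicate 2. The place of Mir127 depends on the setting as well. With DESeq2 size factors Mir434, at 0.16, lay closer to equality than Mir127, at -0.21. In the column without regard to strand Mir434 stood at 0.18 and Mir127 at -0.19.

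On TMM sizes, Mir434, Mir431 and Mir136 differed more. Mir434 was 1.16-fold higher in replicate 2 (log2 ratio 0.21, interval 0.15 to 0.28; exact binomial test, adjusted p = 3.67e-10) and Mir136 1.67-fold higher (0.74, 0.52 to 0.96; adjusted p = 1.97e-11). Mir431 was 1.31-fold higher in replicate 1 (log2 ratio -0.39, -0.47 to -0.30; adjusted p = 3.50e-19). Along the chromosome, Mir431, Mir433 (higher with library totals) and Mir127 were lower in replicate 2, and Mir434 and Mir136, beyond them, were higher. The median absolute log2 ratio was 0.21 over the 5 detected members and 0.52 over all 389 detected genes. The members passed the minimum count at very different depths, so these medians describe the libraries and are no test.

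Measured against the spread of both libraries, no member passed. The edgeR exact test with a common dispersion (biological coefficient of variation 0.41) gave an adjusted p of 1 for all 5, with unadjusted p from 0.39 for Mir136 to 0.94 for Mir433. That test called 0.514% of all detected genes, which is 2 of 389, and 23 had an unadjusted p under 0.05, none of them a member. The error it uses is estimated from these very libraries, and a p above the threshold is no evidence that levels were equal.

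**Figure D3:**
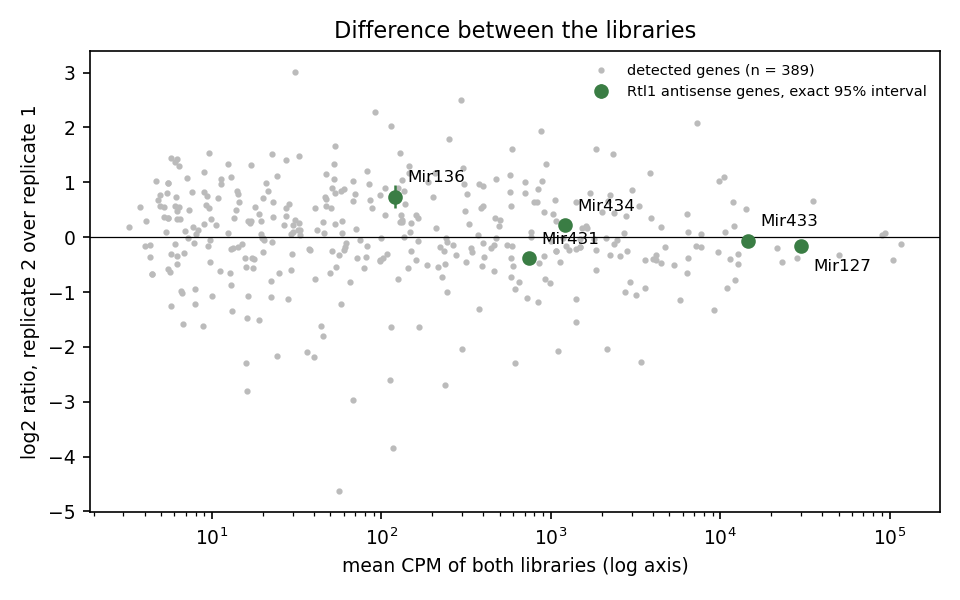
Log2 ratio of replicate 2 over replicate 1 on TMM-scaled counts (y axis) against the mean CPM of both libraries (x axis, log axis) for 389 detected genes in grey and the 5 detected members in green with exact 95% intervals. Mir433 and Mir127 lie near 0 at the abundant end, and Mir136, the lowest, lies at 0.74.

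Within the stretch the composition shifted slightly between the libraries. Of the members' reads Mir127 made up 65.1% in replicate 1, with an exact 95% interval of 64.9 to 65.4, against 63.5% in replicate 2, with an interval of 63.2 to 63.7. Mir433 was 30.7% (30.4 to 30.9) and 31.9% (31.6 to 32.1). Mir434 made up 2.30% and 2.89%, Mir431 1.74% and 1.44%, and Mir136 0.183% and 0.332%. These shares need no scaling between libraries, and for each of the 5 genes the intervals of the libraries do not overlap. The intervals cover counting error only. Beyond that error the exact binomial test called 67.6% of all detected genes different, so such a shift is not particular to the members.

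The stretch held a large part of the reads of the whole imprinted microRNA region. From Mir770 to Mir410, 64 microRNA genes are annotated in the tables, 49 of them detected. The 6 Rtl1 antisense genes took 45.7% of this region's reads in replicate 1 and 48.2% in replicate 2. Mir127 and Mir433 were its most abundant and second most abundant genes by mean CPM, ahead of Mir770, which lies on the Meg3 side of the region at 10597 ± 972 CPM. Mir434 ranked 13, Mir431 ranked 20 and Mir136 ranked 32 in the region.

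The other sub-clusters were defined by gene lists, and their leading genes were less abundant than Mir127 and Mir433. The Mirg list also holds genes that lie outside the span from Mir770 to Mir410 and are not counted in it. The Mirg cluster, the long array around Mir379 and Mir410, took 4.01% and 3.35% of assigned reads with 34 of 40 genes detected, led by Mir382 (6449 ± 859 CPM) and Mir487b (5790 ± 2865 CPM). The Meg3 side took 1.27% and 1.41% with 8 of 9 detected, led by Mir770 and Mir337 (1220 ± 37.4 CPM). The Rian side took 0.273% and 0.204% with 3 of 4 detected, led by Mir370 (1493 ± 59.6 CPM) and Mir341 (836 ± 422 CPM). The median CPM of detected genes was 1204 in the Rtl1 antisense stretch, 836 on the Rian side, 345 on the Meg3 side and 251 in the Mirg cluster, against 105 over all detected genes.

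Differences between the libraries were called in all sub-clusters. In the Mirg cluster 14 genes were called higher and 16 lower in replicate 2 among 34 detected, with a median log2 ratio of -0.049 and a range from -2.69 to 2.03. On the Meg3 side 3 were called higher and 3 lower (median -0.11), and on the Rian side 2 lower and none higher (median -0.32). The median over the 5 detected Rtl1 antisense genes was -0.064 with a range from -0.39 to 0.74, and over all detected genes it was 0.053. The median absolute log2 ratio was 0.21 in the Rtl1 antisense stretch and 0.46 in the rest of the region. Whether the spread differed between the sub-clusters was not tested.

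**Figure D4:**
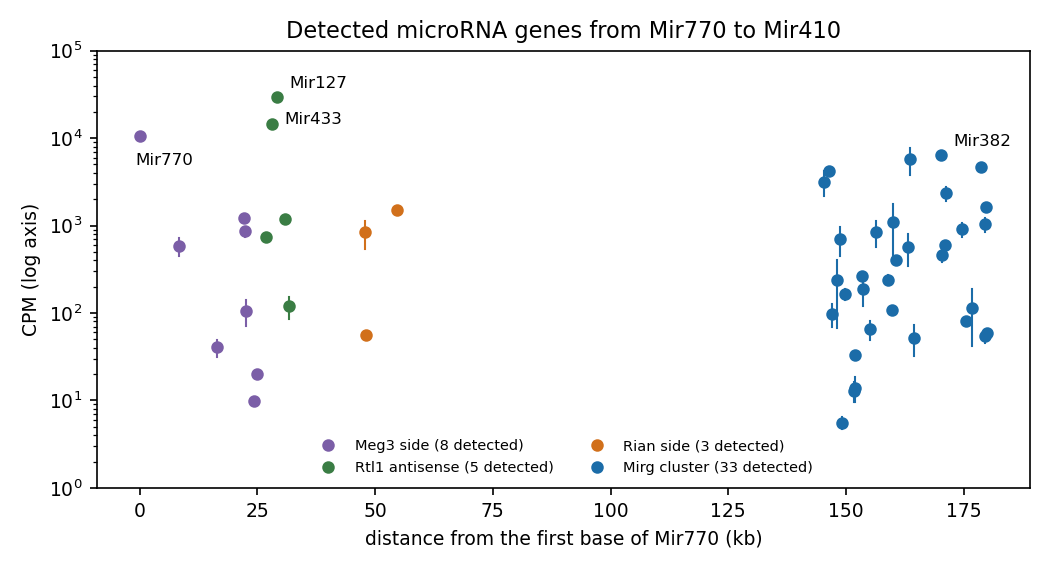
Mean CPM (y axis, log axis) of the detected microRNA genes from Mir770 to Mir410 against distance from Mir770 (x axis, kb), coloured by sub-cluster; vertical lines join the values of the 2 libraries. Mir127 and Mir433 stand above all other genes of the region, and the lines of several Mirg cluster genes are longer than theirs.

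As to the libraries as a whole, replicate 1 held 9713924 reads and replicate 2 held 8551453, of which 35.2% and 33.0% were assigned to a microRNA gene. Reads that fit several places made up 41.6% and 38.2%. Of 14 neuronal marker genes 10 were detected, and the list held 3.31% and 3.40% of assigned reads. Mir124a-2 and Mir124a-3, copies of 1 microRNA, were at 0. A read that fits several copies carries no gene name, so these 0 values do not show that the microRNA was absent. The neuronal share leaves out such reads too. Markers of other cell types moved between the libraries: all 3 endothelial and mural genes were detected and held 2.17% in replicate 1 and 1.32% in replicate 2, and all 5 choroid plexus and ependyma genes held 0.342% and 0.164%. Oligodendrocyte markers held 0.503% and 0.667%, microglia and leukocyte markers 0.385% and 0.325%, and red blood cell, muscle and liver markers under 0.01%. These sums do not stand for each gene of a list. The oligodendrocyte gene Mir219a-2 went against its list, with 2977 CPM in replicate 1 and 2662 in replicate 2. Mir126a, of the endothelial and mural list, had 7871 and 7464 CPM. In the choroid plexus and ependyma list, Mir211 had 73.3 and 76.2 CPM. The part of these markers in the differences at the Rtl1 antisense genes was not tested.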

How the data were processed

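Per the text notes of each library, the authors aligned to mm10 with GENCODE M21; their tables hold deposited raw counts in 3 columns, for either strand, the gene's strand and the other strand. No aligner, counter or trimming step is named in the labels or notes. The 4 rows without a gene, 64.8% and 67.0% of reads, were left out, and the column for the gene's strand was used. All 2202 gene IDs matched GENCODE M21. CPM used assigned reads as the library size, with exact Clopper-Pearson intervals at 95% and a floor of 3 reads; both cover counting error only, since the counts hold no molecular identifiers. Genes reaching 10 reads in each library were compared by exact binomial test (scipy 1.17.1) on TMM sizes (edgeR 4.0.16, R 4.3.3), adjusted by Benjamini-Hochberg. DESeq2 1.42.0 size factors and the edgeR exact test were alternatives. The binomial comparison was tested on simulated counts that held counting error only. They had no spread between libraries beyond it, so that trial does not bear on the spread seen here. A quasi-likelihood test needs a second group and was not run. Genes named are the 6 members, overlapping genes and the 2 most abundant genes of each other sub-cluster. Mir124a-2 and Mir124a-3 were named as markers at 0. Mir219a-2, Mir126a and Mir211 were named as markers that moved little or against their list. Members and lists were chosen with earlier results of these data known.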

Additional observations from a re-analysis of the deposited data

How the results depend on the processing

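The share of the 6 genes was 4.64% of assigned reads, between 4.61% and 4.68% when either replicate was left out. It was 4.96% in the column without regard to strand and 1.58% of all reads of the tables. The number of members called different was 5, beside 263 of 389 detected genes. It was 4 in the column without regard to strand, where Mir136 has no reads, beside 244 of 364 genes. By the edgeR exact test, whose error is the spread between libraries, it was 0, and the number of all detected genes called fell from 263 to 2. Other scalings and count minimums called all 5 members. Beside them stood 271 of 389 genes with DESeq2 size factors and 261 of 389 with library totals. With at least 1 read in either library 282 of 756 genes were called, and with at least 100 reads in both 208 of 241. The log2 ratio of Mir433 turned from -0.064 to 0.035 with library totals. No other member changed direction under any scaling or minimum tried. Subtracting the GC fit described below could not turn a member. No paired analysis was possible because there is only 1 group. Leaving out a replicate gives no ratio between libraries. At this depth the 0 reads of Mir432 allow up to 0.877 and 1.06 CPM.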

Other observations

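Hairpin GC content ran against the difference between the libraries within the stretch. Mir431, with a GC content of 60.4%, had a log2 ratio of -0.39, Mir127 (57.1%) -0.16 and Mir433 (56.5%) -0.064, whereas Mir434 (45.7%) had 0.21 and Mir136 (40.3%) 0.74. Over all 389 detected genes the slope had the other sign, at 0.23 log2 units for each 10 percentage points of GC. Subtracting that fit moved every detected member away from 0, to -0.58 for Mir431, -0.28 for Mir127, -0.17 for Mir433, 0.36 for Mir434 and 1.01 for Mir136. Given the GC content of the members, the signs of their ratios and of the slope fixed this outcome, so it gives no support. With 5 genes the pattern is a description.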
